A study of Mus musculus with 4 samples.

Results

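The respiratory chain genes were taken from the deposited table by name: every gene whose symbol began with Nduf, Uqcr, Atp5 or Cox4 to Cox8, and Sdha, Sdhb, Sdhc and Sdhd, with pseudogene entries left out. This gave 92 of the 24444 genes in the table. Of these, 75 encode subunits of the oxidative phosphorylation complexes that are carried in the nucleus, with 36 in complex I, 4 in complex II, 8 in complex III, 12 in complex IV and 15 in complex V. A further 8 are tissue-specific isoforms of complex IV subunits, kept apart here, and 9 are assembly factors or related proteins that share the names. The count filter left 89 of the 92 for testing, and the isoforms Cox6a2, Cox7b2 and Cox8c did not pass it. Genes were placed in complexes by knowledge of each gene and not by any measured value. The names do not reach every nuclear subunit, so the sets and sums per complex are not complete. Cyc1, the cytochrome c1 of complex III, was counted in a list of cytochrome c and coenzyme Q synthesis genes. Usmg5 and 2010107E04Rik, small subunits of complex V, were counted in a list of ATP synthase partners.

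Per the labels, RNA sequencing was done on tumours of CT26, a mouse colon carcinoma line of the BALB/c strain, taken when they reached a volume of around 70 mm3. The labels give 3 tumours of CT26-shppp2r1a cells, in which a short hairpin RNA targeted Ppp2r1a (it encodes the scaffold of the phosphatase PP2A), and 1 tumour of CT26-scr control cells, each as 1 library. The tumours also hold cells of the host mouse, and whether each knockdown tumour grew in its own mouse is not stated, so a p-value reflects the spread between these libraries only. GEO's descriptions number the control 3, like knockdown replicate 3, and whether this marks a shared batch is not stated. The control had no replicate, so a feature of that tumour and an effect of the knockdown cannot be told apart.

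The respiratory chain sits in the inner mitochondrial membrane. Complex I takes electrons from NADH and complex II takes them from succinate, both pass them to ubiquinone, complex III hands them on to cytochrome c, and complex IV gives them to oxygen. Complexes I, III and IV pump protons as they work, and complex V, the ATP synthase, lets the protons flow back and makes ATP. Each complex other than complex II is built from subunits of both genomes, and the mitochondrially encoded subunits were not analysed here. In the intestine, absorptive enterocytes are rich in mitochondria.

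Ppp2r1a itself was at 40.2, 29.8 and 22.3 TPM across knockdown replicates 1 to 3, with the control at 75.1 TPM. All 3 knockdown libraries were below the control, which is the direction that the labels give. Total expected counts ran from 24726440 to 28950004. Transcripts of differentiated intestinal epithelium were abundant in every library, although the labels give a carcinoma line. The libraries are compared here as labelled, and what share of their RNA came from CT26 cells was not determined. The summed level of 13 enterocyte genes was 30858, 76794 and 128290 TPM across knockdown replicates 1 to 3, with the control at 117849 TPM. That of 4 Paneth cell genes was 4955, 14988 and 6856 TPM versus 5913 TPM, that of 5 goblet cell genes 9484, 12825 and 15123 TPM versus 17653 TPM, and that of 6 leukocyte genes 1542, 1340 and 159 TPM versus 152 TPM. The summed level of 4 large bowel genes was 1953, 765 and 188 TPM versus 230 TPM. None of the 4 was at 0 in the knockdown libraries. In the control Car1 was at 0, whereas Aqp8, Slc26a3 and Cdx2 were at 54.2, 95.6 and 80.45 TPM. The leukocyte genes S100a8 and S100a9 were also at 0 in the control. In knockdown replicate 1 the enterocyte genes had a median log2 ratio of -2.67 over the control, and in replicates 2 and 3 of -0.93 and -0.07. On the same TMM-scaled CPM the subunits of the respiratory chain had medians in the same order of libraries, which they did not have on TPM, and the part of the cell makeup in that was not tested. In bulk tissue, fewer cells of a type and less RNA per cell cannot be told apart.

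The respiratory chain took a large share of the transcripts in all 4 libraries. The 75 subunits together made up 4.93%, 4.52% and 4.93% of TPM across knockdown replicates 1 to 3, with the control at 5.12%. Of these subunits, 74 stood at 100 TPM or more in each library, and 71 or 72 were among the 1000 most abundant genes of a library. The mean over the 4 libraries ran from 50.6 TPM for Ndufa11 to 2066 TPM for Atp5g3, a gene of the membrane c-ring of ATP synthase. At these levels counting error was small, since the lowest subunit count in any library was 1163, which allows a counting error of 2.93%. The spread among the libraries was also narrow in TPM. The highest library was less than 1.5-fold above the lowest for 66 of the 75 subunits, with a median of 1.21-fold and a largest value of 1.77-fold, for Uqcrc1.

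**Figure D1:**
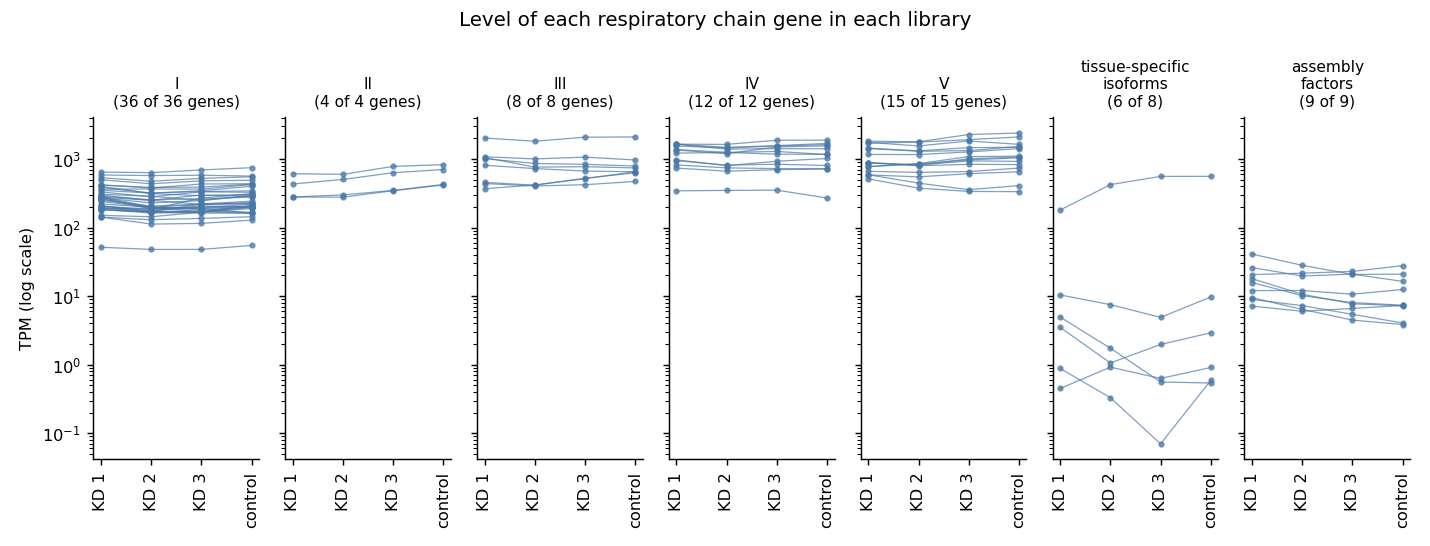
TPM on a log axis of each respiratory chain gene in knockdown (KD) replicates 1 to 3 and the control, in panels by complex, with thin lines joining the points of 1 gene. Genes at 0 in any library are left out, and 74 of the 75 subunits stay above 100 TPM in each library.

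In the fit across all 15246 genes that passed the filter, no respiratory chain gene reached an adjusted p of 0.05 (quasi-likelihood F-test of edgeR, two-sided, Benjamini-Hochberg). The share of all genes called was 0%, and 3.65% of all genes had an unadjusted p under 0.05. None of the 89 tested respiratory chain genes had such a p, and their adjusted p ran from 0.782 to 0.981. No respiratory chain gene was called by DESeq2, which called 1.17% of all genes, or by edgeR without knockdown replicate 2 (1.07% of all genes) or without replicate 3 (7.33%). The smallest p that an exact permutation test can reach with 3 libraries and 1 control is 0.25. The comparisons that follow therefore describe directions and sizes that did not pass the test.

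How far the subunits sat from the control depended on the scaling. CPM here is a gene's count over its library total, after scaling by TMM, which sets the libraries level on the bulk of their genes. On this scale all 3 knockdown libraries were below the control for 62 of the 75 subunits and above it for 0. Among all tested genes the shares were 27.7% below and 31.8% above. On TPM, 37 subunits were below the control in all 3 and 13 were above, where the shares among all genes were 15.9% and 43.6%. With scaling by library size alone the numbers were 30 and 12, but the shares among all genes were not worked out on that scale. The fitted median log2 fold change of all tested genes was 0.06 by TMM and 0.40 by library size alone, a shift of 0.35, so values are also given relative to the median of all genes. The subunits had a median log2 fold change of -0.36 by TMM, which is -0.41 relative to that median.

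On TMM-scaled CPM abundant genes in general leaned the same way. The 1537 genes at 100 TPM or more on average had a median log2 fold change of -0.23. Of them 619 were below the control in all 3 knockdown libraries and 323 above (27.7% and 31.8% of all genes). On TPM 409 were below and 548 above (15.9% and 43.6% of all genes). Library by library on TMM-scaled CPM, the median log2 ratio of the subunits over the control was -0.57, -0.45 and -0.13 across knockdown replicates 1 to 3. The abundant genes stood at -0.57, -0.24 and 0.01 and all tested genes at 0.07, 0.04 and 0.01. On TPM the subunits stood at -0.02, -0.18 and -0.08 and the abundant genes at -0.01, 0.04 and 0.06. In replicate 1 the subunits therefore sat at the level of abundant genes, and in replicates 2 and 3 they sat below it by an amount that no replicate of the control was there to test.

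**Figure D2:**
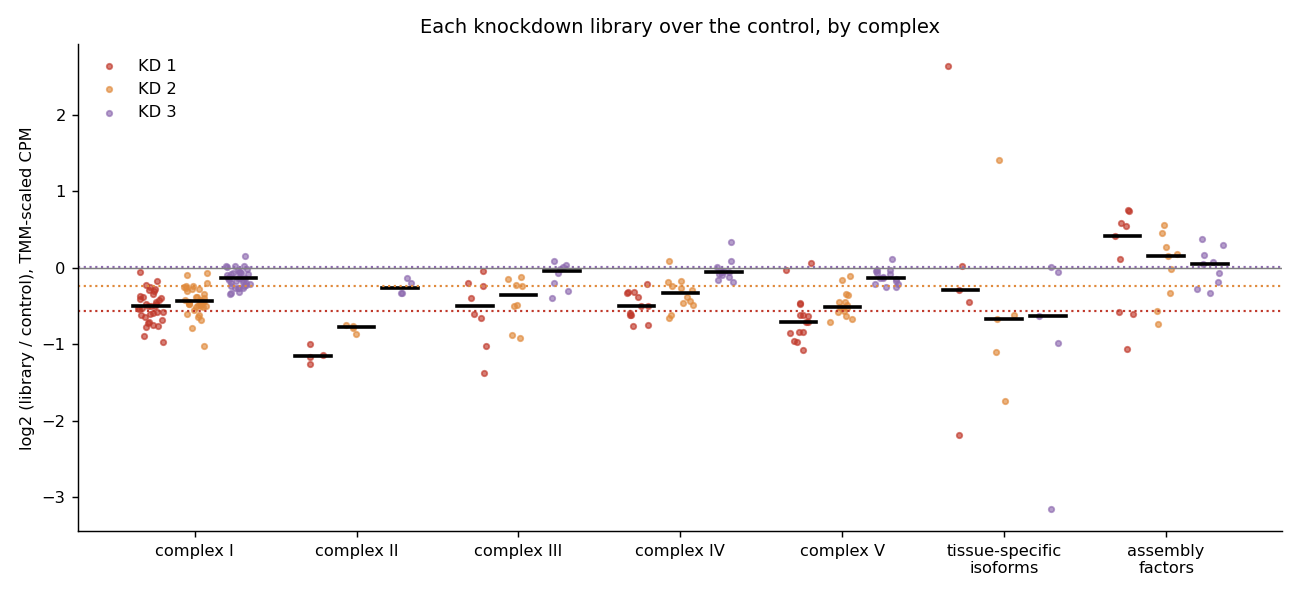
Log2 ratio of each knockdown (KD) library over the control for each tested gene, on TMM-scaled CPM, by complex, with a bar at the median of the group in that library and a dotted line, in the colour of each library, at the median of genes at 100 TPM or more. The complex II points lie below 0 in all 3 libraries, at medians of -1.15, -0.77 and -0.26.

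Complex II, succinate dehydrogenase, is the only complex with no mitochondrially encoded subunit and is also an enzyme of the TCA cycle. All 4 of its subunits were below the control in all 3 knockdown libraries, both on TMM-scaled CPM and on TPM. Among all tested genes the shares were 27.7% and 15.9%. Sdha, the flavoprotein that oxidises succinate, was at 279, 299 and 348 TPM across knockdown replicates 1 to 3, with the control at 425 TPM. Sdhb, the iron-sulfur subunit, was at 431, 503 and 630 TPM versus 702 TPM. The control was above every knockdown library for both, and replicate 3 was the nearest to it. Sdhc, a membrane anchor of the complex, was at 279, 277 and 344 TPM versus 417 TPM. Sdhd, the other anchor, was at 610.0, 597 and 779 TPM versus 826 TPM. For the anchors replicates 1 and 2 were close to each other, with replicate 2 the lowest, and replicate 3 lay between them and the control.

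The mean over the knockdown libraries was 309 ± 35.5 TPM for Sdha, 521 ± 101 TPM for Sdhb, 300.0 ± 38.2 TPM for Sdhc and 662 ± 102 TPM for Sdhd (SD, n = 3). The log2 fold changes were -0.72, -0.67, -0.73 and -0.58, with standard errors from 0.45 to 0.53 and an adjusted p of 0.782 by edgeR for each. The median of -0.70 became -0.41 by library size alone and -0.46 on log2(TPM + 1) and kept its sign. Relative to the median of all genes it was -0.76, and from -0.53 to -1.04 when a knockdown library was left out. Summed over the 4 genes, complex II was at 1599, 1676 and 2101 TPM across knockdown replicates 1 to 3, with the control at 2371 TPM, a ratio of 0.756 for the knockdown mean. The same ratio was 0.952 for complex I, 0.978 for complex III, 0.979 for complex IV and 0.902 for complex V. With 1 control the difference between complexes was not tested.

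**Figure D3:**
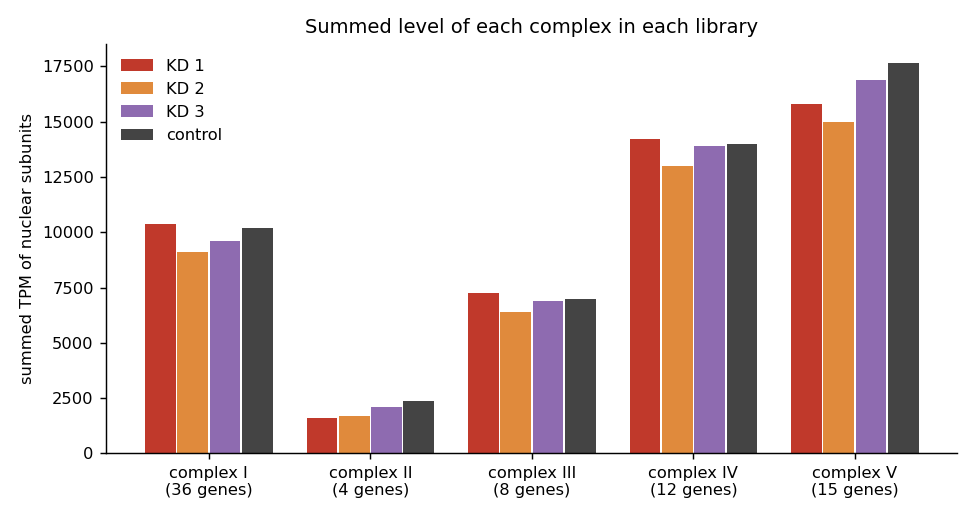
Summed TPM of the nuclear subunits taken by name in each complex (number of genes below each name) in knockdown (KD) replicates 1 to 3 and the control. The control bar is the highest for complexes II and V, and for complexes I, III and IV replicate 1 stands above it.

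The 8 subunits of complex III taken by name form 2 sets by role. Cyc1, outside them, was at 577, 558 and 589 TPM across knockdown replicates 1 to 3, with the control at 655 TPM. The core proteins Uqcrc1 and Uqcrc2 and the Rieske iron-sulfur protein Uqcrfs1, which takes electrons from ubiquinol, made up the first set. All 3 genes were below the control in every knockdown library on TMM-scaled CPM and on TPM (27.7% and 15.9% of all genes). Uqcrc1 was at 368, 418 and 515 TPM across knockdown replicates 1 to 3, with the control at 653 TPM. Its log2 fold change of -0.84, with a standard error of 0.54 and an adjusted p of 0.782 by edgeR, was the lowest among the 75 subunits. Uqcrfs1 was at 455, 415 and 524 TPM versus 627 TPM, with a log2 fold change of -0.70. The small subunits behaved otherwise on TPM, where 4 of 5 were above the control in all 3 knockdown libraries (43.6% of all genes). On TMM-scaled CPM 0 of the 5 were above and 2 were below (31.8% and 27.7% of all genes). The sets also differed in implied length, at 6.05 to 7.95 counts per TPM in the control for the small subunits and 21.3 to 31.2 for the others. The part of length in the split was not tested.

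Uqcr10, a small membrane subunit, was at 1050, 759.9 and 772 TPM versus 739 TPM in the control. Uqcrb, which lies near the ubiquinone site, was at 1011, 859 and 835 TPM versus 788 TPM, and Uqcrq at 1078, 1002 and 1064 TPM versus 966 TPM. Uqcrh, the hinge protein that binds near cytochrome c1, was the most abundant subunit of the complex at 2022, 1815 and 2077 TPM and was at 2096 TPM in the control. On TMM-scaled CPM the 5 small subunits had a median log2 fold change of -0.12 and the 3 others of -0.70. Summed TPM was 1.05 times the control for the small subunits and 0.754 times for the 3 others. In these libraries the balance of mRNAs among these 8 genes differed between the control and the knockdown mean. With 1 control that difference was not tested. Over these 8 genes the median log2 fold change relative to all genes was -0.32, and without knockdown replicate 3 it was -0.49. By library size alone the median itself was 0.05 and on log2(TPM + 1) it was 0.01.

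Complex I, the largest of the complexes, was close to the control on TPM and below it on TMM-scaled CPM. All 36 subunits had a negative log2 fold change, from -0.63 to -0.06 with a median of -0.33. Of the 15246 tested genes 7096 had a negative one. On TMM-scaled CPM 31 were below the control in all 3 knockdown libraries, and on TPM 14 were below and 3 above. Among all tested genes 27.7% were below on TMM-scaled CPM, and 15.9% were below and 43.6% above on TPM. The 3 subunits of the NADH-oxidising module, Ndufv1, Ndufv2 and Ndufs1, had a median of -0.36. The 4 core subunits of the ubiquinone-reducing module had one of -0.43 and the 29 accessory subunits one of -0.33. These medians differed by less than the standard error of a single gene, from 0.26 to 0.41 in this complex. That error comes from the spread between libraries, so the difference between these groups of genes was not tested.

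The lowest fold changes in complex I were those of Ndufa5 and Ndufb3. Ndufa5, an accessory subunit of the peripheral arm, was at 277, 185 and 269 TPM across knockdown replicates 1 to 3, with the control at 310 TPM. Replicate 2 was the lowest library here, in contrast to most subunits, for which replicate 1 was the lowest on TMM-scaled CPM. Ndufb3, an accessory subunit of the membrane arm, was at 181, 170.2 and 221 TPM versus 242 TPM. The highest fold changes were -0.06 for Ndufv3, at 193, 184 and 190 TPM versus 163 TPM, and -0.12 for Ndufb5, at 277, 249 and 218 TPM versus 220.1 TPM. For Ndufv3 every knockdown library was above the control on TPM, and for Ndufb5 the groups overlapped. The most abundant subunits were Ndufb9, Ndufa6 and Ndufb8. Ndufa6 was at 584, 573 and 579 TPM versus 563 TPM, Ndufb9 at 644, 631 and 692 TPM versus 746 TPM, and Ndufb8 at 533, 473 and 521 TPM versus 550.0 TPM. Ndufb9 and Ndufb8 were below the control in every knockdown library and Ndufa6 above it, on this scale. Ndufa11 was the least abundant subunit per length, at 51.6, 48.0 and 48.0 TPM versus 54.9 TPM, although its count of 2451 in the control was near the complex I median of 2759.

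The 12 nuclear subunits of complex IV, cytochrome c oxidase, had a median log2 fold change of -0.27. On TMM-scaled CPM 9 were below the control in all 3 knockdown libraries, and on TPM 5 were below and 5 above. Among all tested genes 27.7% were below on TMM-scaled CPM, and 15.9% were below and 43.6% above on TPM. The 5 of 12 above on TPM were thus near the share of all genes. By library size alone the median was 0.05 and on log2(TPM + 1) it was 0.01, so its sign rested on the scaling. Cox6b1, which joins the monomers of the enzyme, was at 1348, 1194 and 1501 TPM across knockdown replicates 1 to 3, with the control at 1551 TPM, and its log2 fold change of -0.47 was the lowest of the complex. Cox5a was at 970.4, 801 and 926 TPM versus 1017 TPM. Both were below the control in every knockdown library. Cox8a was at 1372, 1249 and 1286 TPM versus 1163 TPM, above the control on this scale, with a log2 fold change of -0.12 by TMM.

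Cox4i1, Cox6c and Cox6a1 were the most abundant. Cox4i1, the regulatory subunit that binds ATP, was at 1642, 1632 and 1878 TPM versus 1880 TPM in the control, with replicate 3 level with the control. Cox6c was at 1644, 1478 and 1565 TPM versus 1687 TPM, and Cox6a1 at 1545, 1448 and 1544 TPM versus 1618 TPM. Cox7a2l, also known as SCAFI, joins complexes III and IV into supercomplexes. It was the 1 gene of the 75 with a positive log2 fold change, 0.09 with a standard error of 0.39 and an adjusted p of 0.934 by edgeR. It was at 343, 348 and 351 TPM versus 270 TPM, above the control in all 3 libraries on TPM but not on TMM-scaled CPM, where its log2 ratios were -0.20, 0.09 and 0.33. Relative to the median of all genes it was 0.03, and its sign turned by library size alone and without replicate 3.

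Complex V had a median log2 fold change of -0.45. On TMM-scaled CPM 13 of 15 subunits were below the control in all 3 knockdown libraries, and on TPM 10 were. Among all tested genes the shares were 27.7% and 15.9%. The 5 subunits of the catalytic head and central stalk had a median of -0.49, the 4 of the peripheral stalk -0.47 and the 3 small membrane subunits -0.36. Atp5b, the catalytic beta subunit, was at 1700, 1764 and 1914 TPM across knockdown replicates 1 to 3, with the control at 2095 TPM. Atp5o, which joins the peripheral stalk to the head, was at 769.6, 858 and 1082 TPM versus 1100 TPM. For both the control was above every knockdown library, and replicate 3 was the nearest. Atp5l, a small membrane subunit at the dimer interface, was at 1744, 1549 and 1829 TPM versus 1635 TPM, and its groups overlapped.

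The proton-carrying c-ring of complex V is encoded by 3 genes, which make the same mature protein from different coding sequences. The ends of their coding sequences are shown because it translates to the same 75 residues in each, so that within this stretch the mRNAs differ only by silent changes. They are from the GENCODE M21 transcripts of GRCm38, with exons joined. Atp5g1 lies on chr11:96068852-96075670, Atp5g2 on chr15:102662864-102672352 and Atp5g3 on chr2:73908447-73911326, all on the minus strand. Capitals mark bases of Atp5g1 and Atp5g2 that differ from Atp5g3 and, in Atp5g3, bases that differ from either.
Atp5g1: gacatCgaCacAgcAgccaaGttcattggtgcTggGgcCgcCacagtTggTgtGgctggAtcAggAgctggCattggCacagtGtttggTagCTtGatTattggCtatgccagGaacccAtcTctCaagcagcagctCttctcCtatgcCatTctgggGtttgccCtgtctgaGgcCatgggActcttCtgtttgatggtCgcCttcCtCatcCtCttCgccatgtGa
Atp5g2: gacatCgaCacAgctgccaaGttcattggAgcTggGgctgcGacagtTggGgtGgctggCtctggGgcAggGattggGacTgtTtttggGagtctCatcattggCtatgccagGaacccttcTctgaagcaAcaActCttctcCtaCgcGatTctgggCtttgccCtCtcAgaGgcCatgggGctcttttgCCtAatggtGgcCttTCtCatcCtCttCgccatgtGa
Atp5g3: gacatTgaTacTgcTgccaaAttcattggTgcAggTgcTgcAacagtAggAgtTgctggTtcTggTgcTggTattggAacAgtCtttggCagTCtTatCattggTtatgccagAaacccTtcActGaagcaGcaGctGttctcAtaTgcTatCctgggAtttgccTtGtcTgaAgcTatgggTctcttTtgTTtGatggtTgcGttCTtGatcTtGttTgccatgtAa
Over these 228 bases Atp5g1 and Atp5g2 were 85.1% identical, Atp5g1 and Atp5g3 79.8%, and Atp5g2 and Atp5g3 78.5%. In the rest of the coding sequence the same pairs, in that order, were 65.7%, 59.0% and 62.4% identical. The split of reads among the 3 genes is uncertain where the counting could share reads of the similar end. Sequence outside the coding sequences was not compared.

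The make-up of the c-ring mRNAs differed among libraries. Atp5g3 was at 1816, 1782 and 2272 TPM across knockdown replicates 1 to 3, with the control at 2393 TPM, with a log2 fold change of -0.55. Atp5g1 was at 513, 376 and 336 TPM versus 334 TPM, and Atp5g2 at 589, 445 and 356 TPM versus 409 TPM, with log2 fold changes of -0.02 and -0.14. Atp5g3 gave 62.2%, 68.5% and 76.6% of the summed TPM of the 3 genes across knockdown replicates 1 to 3, with the control at 76.3%. Replicates 1 and 2 were below the control in this share and replicate 3 was level with it. The mean of 69.1 ± 7.22% (SD, n = 3) lay about 1 SD from the control, so the groups overlapped.

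**Figure D4:**
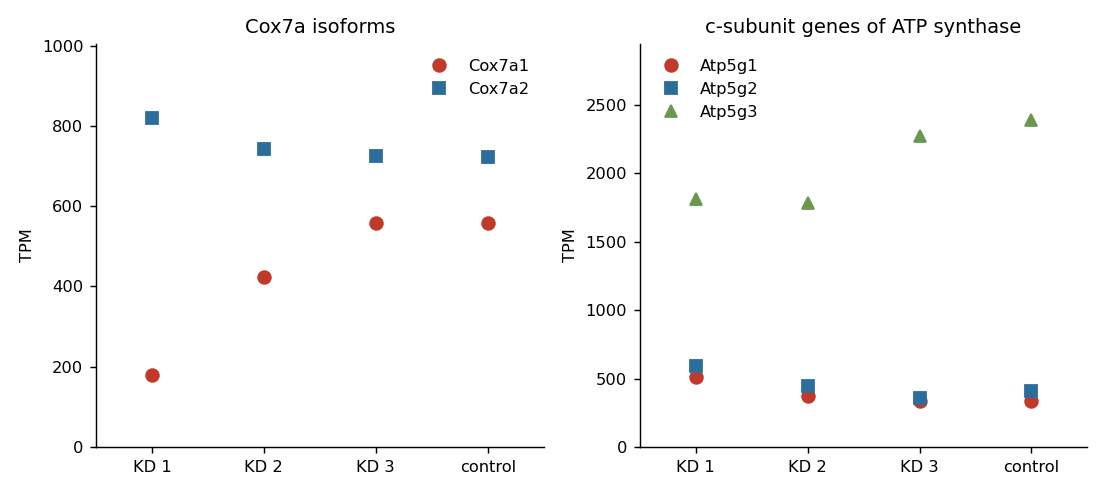
TPM of the Cox7a isoforms (left) and of the 3 c-ring genes of ATP synthase (right) in knockdown (KD) replicates 1 to 3 and the control. Cox7a1 goes from 180 TPM in replicate 1 to 558 TPM in the control, whereas Cox7a2 stays between 724 and 819 TPM.

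Among the tissue-specific isoforms of complex IV only Cox7a1 was abundant. Cox7a1, the heart and skeletal muscle isoform, was at 180.0, 423 and 557 TPM across knockdown replicates 1 to 3, with the control at 558 TPM. Replicate 1 stood apart and replicate 3 was level with the control. The isoform Cox7a2, found in most tissues, was at 819, 741 and 724 TPM versus 724 TPM. Cox7a1 gave 18.02%, 36.3% and 43.5% of the summed TPM of both across knockdown replicates 1 to 3, with the control at 43.5%. By edgeR its log2 fold change was -0.73 (standard error 0.80, adjusted p 0.788). The coding sequences are shown because they bear on how well reads of the isoforms can be told apart. They are from the GENCODE M21 transcripts of GRCm38, exons joined, of Cox7a1 on chr7:30184144-30186078 (plus strand) and Cox7a2 on chr9:79755361-79759878 (minus strand), with capitals for bases that differ or have no partner in the alignment.
Cox7a1: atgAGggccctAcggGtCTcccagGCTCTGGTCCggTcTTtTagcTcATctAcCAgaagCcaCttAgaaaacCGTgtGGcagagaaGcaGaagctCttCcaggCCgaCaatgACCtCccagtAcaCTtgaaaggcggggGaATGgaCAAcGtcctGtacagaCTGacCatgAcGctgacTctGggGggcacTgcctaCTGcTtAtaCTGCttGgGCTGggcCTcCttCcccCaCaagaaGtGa
Cox7a2: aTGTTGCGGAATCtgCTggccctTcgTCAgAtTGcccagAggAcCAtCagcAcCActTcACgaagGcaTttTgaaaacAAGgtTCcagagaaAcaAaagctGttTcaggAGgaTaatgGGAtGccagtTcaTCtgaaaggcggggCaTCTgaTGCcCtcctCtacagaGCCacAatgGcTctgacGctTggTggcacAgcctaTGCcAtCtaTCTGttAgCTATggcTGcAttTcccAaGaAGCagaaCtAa
They were identical at 154 of 234 aligned bases (65.8%), and their translations of 80 and 83 residues shared 48.

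Genes that define striated muscle were low. Across knockdown replicates 1 to 3 the summed level of 8 heart and skeletal muscle genes was 20.3, 26.1 and 26.3 TPM. The control was at 55.4 TPM. All 8 were below the control in all 3 on TPM, where 15.9% of all genes were so. The count takes in genes at the floor, such as Myh7 at 0, 0.05 and 0.03 TPM versus 0.08 TPM. Ckm, the muscle creatine kinase, was at 3.5, 5.62 and 4.16 TPM versus 13.4 TPM, and Myh6, a cardiac myosin, was at 0 in the knockdown libraries and at 0.01 TPM in the control. The muscle isoforms Cox6a2 and Cox8b were also near the limit of detection, with 4 to 9 and 5 to 15 counts a library. The summed level of 5 smooth muscle genes was 576, 331 and 184 TPM versus 330.1 TPM. The part of muscle cells in the level of Cox7a1 was not tested.

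Cox4i2, the lung isoform that is known to respond to oxygen, was at 4.94, 1.74 and 0.56 TPM versus 0.54 TPM in the control, from 49, 19, 6 and 6 counts. The pooled knockdown level was 3.53 times the control on TMM-scaled counts, with a 95% interval of 1.55 to 9.94 that covers counting error only. Replicate 1 held most of these counts and replicate 3 was level with the control. By edgeR the log2 fold change was 1.72 (standard error 1.31, adjusted p 0.782). Cox6b2, the testis isoform, was at 10.4, 7.51 and 4.90 TPM versus 9.71 TPM. Ndufa4l2, a hypoxia-responsive relative of the complex IV subunit Ndufa4, had 12, 5 and 1 counts against 9. For both the groups overlapped on TPM. The testis isoforms Cox7b2 and Cox8c had no counts in any library.

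The 9 assembly factors and related proteins went both ways from the control. On TMM-scaled CPM 4 were above it in all 3 knockdown libraries and 3 below (31.8% and 27.7% of all genes). On TPM 5 were above and 3 below (43.6% and 15.9% of all genes). Ndufaf4, Ndufaf5, Ndufaf6 and Ndufaf7 were above the control in all 3 knockdown libraries on both scales. Ndufaf5, which modifies the subunit Ndufs7, was at 9.49, 6.40 and 4.47 TPM across knockdown replicates 1 to 3, with the control at 3.85 TPM. Ndufaf6 was at 8.95, 7.26 and 5.43 TPM versus 4.06 TPM. Replicate 1 was the highest and replicate 3 the nearest to the control for both. Their log2 fold changes were 0.47 and 0.51, with standard errors of 0.38 and 0.42 and an adjusted p of 0.782 by edgeR.

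The 9 genes had a median log2 fold change of 0.18, or 0.13 relative to all genes, and 0.23 relative to all genes without knockdown replicate 3. These genes were much less abundant than the subunits, with means over the libraries from 6.05 to 27.7 TPM. The 3 genes with a negative log2 fold change were Ndufaf1, at 12.1, 12.1 and 10.7 TPM versus 12.5 TPM, Atp5s, at 7.15, 6.01 and 6.61 TPM versus 7.30 TPM, and Atp5sl, at 20.6, 21.6 and 22.9 TPM versus 27.8 TPM. All 3 were below the control in each knockdown library on both scales (27.7% of all genes on TMM-scaled CPM and 15.9% on TPM). Atp5sl was named for its likeness to an ATP synthase protein but acts in complex I assembly. Its log2 fold change of -0.68 was the lowest of the set.

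Promoters of the genes were searched for the core motifs of factors known to act on respiratory genes. RefSeq promoters of GRCm38.p6, from 250 bases before to 50 after a gene's start, were at hand for 76 of the 92. The NRF1 core GCGCATGCG, read on both strands, was in 10 of these (13.2%) and in 1.95% of all 27025 genes with a promoter. The YY1 core AAGATGGCG was in 8 (10.5%, against 1.64%) and the ETS core CCGGAAGT, bound by GABP, in 5 (6.58%, against 4.31%). The NRF1 core overlaps its own reading on the other strand, and Uqcr11 held both it and the ETS core. The promoters of Uqcrc1 and Ndufaf5 are shown because both hold the NRF1 core while the levels stood on opposite sides of the control. The first lies at chr9:108936398-108936697 and the second at chr2:140170396-140170695, both on the plus strand, with capitals for the motif on either strand.
Uqcrc1: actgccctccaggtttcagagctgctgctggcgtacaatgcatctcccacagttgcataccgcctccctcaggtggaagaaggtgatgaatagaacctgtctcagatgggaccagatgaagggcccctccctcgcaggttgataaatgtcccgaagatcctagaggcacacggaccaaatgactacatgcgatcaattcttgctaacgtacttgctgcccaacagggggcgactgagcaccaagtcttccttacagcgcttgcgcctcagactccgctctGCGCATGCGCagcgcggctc
Ndufaf5: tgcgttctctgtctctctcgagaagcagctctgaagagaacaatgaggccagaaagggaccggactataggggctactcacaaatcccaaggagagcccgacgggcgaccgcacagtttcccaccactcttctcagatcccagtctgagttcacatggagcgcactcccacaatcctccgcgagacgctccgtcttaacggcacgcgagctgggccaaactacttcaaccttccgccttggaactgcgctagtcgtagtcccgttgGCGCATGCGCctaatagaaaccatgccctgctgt
A match is a description of the letters in this window and not a site.

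Genes that work with the respiratory chain were taken from lists by function, and no member of them passed the edgeR test. The 13 TCA cycle enzymes had a median log2 fold change of -0.48, with 10 below the control in all 3 knockdown libraries on TMM-scaled CPM and 8 on TPM (27.7% and 15.9% of all genes). Mdh2, the mitochondrial malate dehydrogenase, was at 1115, 1964 and 2706 TPM across knockdown replicates 1 to 3, with the control at 3212 TPM. Suclg2, a subunit of succinyl-CoA ligase, was at 85.3, 65.3 and 42.9 TPM versus 51.4 TPM. Both were named as the extremes of the list. On TPM the knockdown libraries overlapped the control for Suclg2 and were all below it for Mdh2 (15.9% of all genes).

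Other routes into the chain and its uncouplers had a median of -0.44 over 9 tested genes. Ucp2, an uncoupling protein family member of the inner membrane, was at 494, 478 and 467 TPM versus 1031 TPM. Its knockdown mean of 480 ± 13.3 TPM (SD, n = 3) showed little spread, and by edgeR its log2 fold change was -1.39 (standard error 0.43, adjusted p 0.782). Ucp1 had a control count of 19 and was at 1.28, 0.64 and 1.77 TPM versus 0.70 TPM. Cytochrome c and coenzyme Q synthesis genes had a median of -0.28 over 13 genes, from -1.04 for Adck3, a coenzyme Q synthesis kinase-like protein, to 0.35 for the methyltransferase Coq5. The 9 tested partners of ATP synthase had one of -0.28 and all were negative, as were 7096 of the 15246 tested genes. They ran from -0.74 for the phosphate carrier Slc25a3 to -0.15 for 2010107E04Rik. On TMM-scaled CPM 5 were below the control in all 3 knockdown libraries (27.7% of all genes). On TPM 2 were below and 1 above (15.9% and 43.6% of all genes).

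By their medians, assembly and expression factors lay nearer to the median of all genes. The 32 tested assembly factors of complexes II to V had a median of -0.10. On TMM-scaled CPM 15 of them were below the control in all 3 knockdown libraries and 5 above (27.7% and 31.8% of all genes). On TPM 5 were below and 12 above (15.9% and 43.6%). The lowest, Sco2, which delivers copper to complex IV, was at 30.6, 43.2 and 43.3 TPM versus 86.2 TPM, with a log2 fold change of -1.39. The highest, Lyrm7, a chaperone of the Rieske protein, was at 1.14, 1.09 and 1.03 TPM versus 0.44 TPM. Both were named as the extremes of the list. On TPM all 3 knockdown libraries were below the control for Sco2 and above it for Lyrm7 (15.9% and 43.6% of all genes). Complex I assembly factors outside the Nduf names had a median of 0.00 over 7 genes, from -0.36 for Ecsit to 0.52 for Acad9, an acyl-CoA dehydrogenase family member. The 77 mitochondrial ribosome proteins had a median of 0.10, with 33 above the control in all 3 knockdown libraries and 14 below on TMM-scaled CPM (31.8% and 27.7% of all genes), and 48 above and 3 below on TPM (43.6% and 15.9%). Mrps6 was at 123, 64.2 and 29.6 TPM versus 17.1 TPM and Mrps31 at 42.4, 49.87 and 49.96 TPM versus 62.2 TPM.

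Regulators of mitochondrial biogenesis had a median log2 fold change of -0.03 over 17 genes, with 6 above and 4 below the control in all 3 knockdown libraries on TMM-scaled CPM, where 31.8% and 27.7% of all genes were so. Esrrg, an orphan nuclear receptor, was at 0.01, 0.20 and 0.25 TPM versus 0.78 TPM and Pprc1, a coactivator of the PGC-1 family, at 7.96, 3.63 and 2.01 TPM versus 1.52 TPM. Both were named as the extremes of the list. On TPM all 3 knockdown libraries were below the control for Esrrg and above it for Pprc1 (15.9% and 43.6% of all genes). Ppargc1a, the coactivator PGC-1 alpha, was picked out after its values were seen. It was at 4.22, 8.58 and 11.1 TPM versus 19.3 TPM, with a log2 fold change of -1.48.

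**Figure D5:**
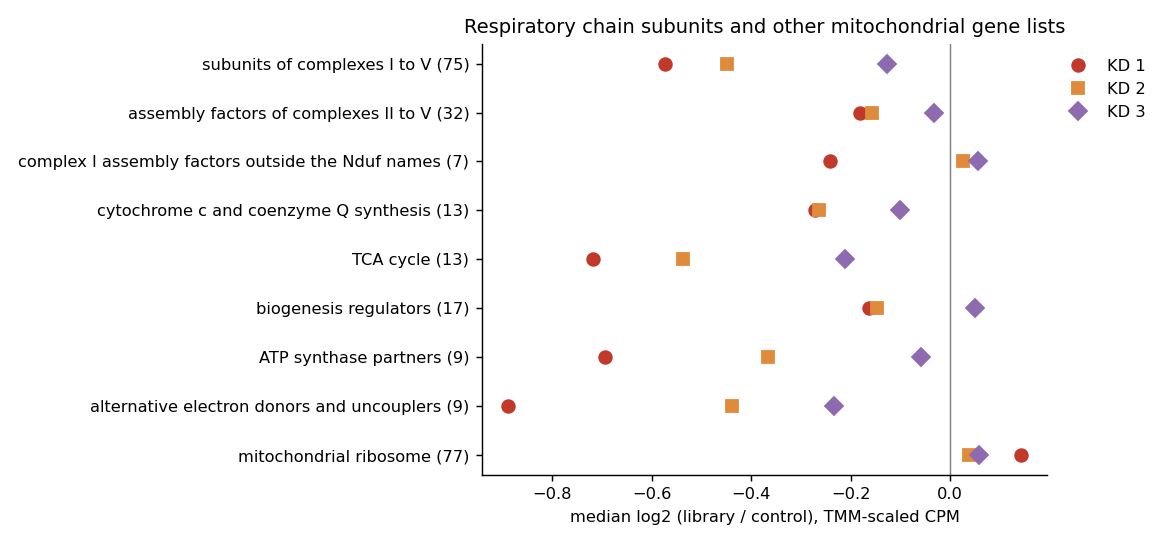
Median log2 ratio of each knockdown (KD) library over the control, on TMM-scaled CPM, for the subunits and for 8 further gene lists, with the number of tested genes after each name. The subunits lie at -0.57, -0.45 and -0.13 and the mitochondrial ribosome at 0.14, 0.04 and 0.06.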

How the data were processed

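RNA from libraries labelled as 3 CT26-shppp2r1a tumours and 1 CT26-scr tumour was sequenced. The table that the authors deposited gives each gene an expected count (an estimate, not always whole), TPM and FPKM in every library. FPKM as deposited was not used. Their table also holds a fold change and a posterior probability of equal expression per gene, which were not used. The submitters' processing notes name Bowtie 0.12.2, mm8 and mm10 without roles. Which counter and which annotation were used is not stated in the sources read. Sequences and positions are from GRCm38. The respiratory chain genes and all lists were chosen with earlier results of these data known.

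Expected counts summed to 24726440, 27508469 and 27910370 across knockdown replicates 1 to 3, with 28950004 for the control. Counts were rounded (5.30% to 5.89% were not whole), kept by filterByExpr with a minimum of 10 (15246 of 24444 genes) and scaled by TMM (factors 1.30, 1.06, 0.867 and 0.844). edgeR 4.0.16 (R 4.3.3) gave the quasi-likelihood test, with Benjamini-Hochberg adjustment over all tested genes, a threshold of 0.05 and 2 residual degrees of freedom, all from the knockdown libraries. The script that runs it was tested on simulated counts. Standard errors are the fold change over the root of F. Alternatives were DESeq2 1.42.0, limma 3.58.1 on log2 CPM (prior count 2) and on log2(TPM + 1), RLE factors, library size alone, no filter, a minimum of 50 counts in a library, and each knockdown library left out.

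Genes named were Ppp2r1a, all complex II subunits, in the other complexes the 3 of highest TPM and the 2 lowest and 2 highest fold changes, all tissue-specific isoforms and, in each list, the lowest and highest fold change. Others named are members of a counted group or were picked out after their values were seen. These are Uqcrc2, Uqcrh, Cyc1, Usmg5, Ndufa11, Cox7a2, the assembly factors, Ppargc1a and the marker genes. Of the listed genes, 13 mitochondrially encoded genes, Coa1 and 1110020G09Rik were not analysed here. Some results are not reported here.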

Additional observations from a re-analysis of the deposited data

How the results depend on the processing

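No respiratory chain gene passed the threshold under any alternative. Over all genes the count past it was 0, and 178 by DESeq2. Leaving out a knockdown library gave 0 to 1111 (0 without replicate 1, 161 without replicate 2 and 1111 without replicate 3). By library size alone the median log2 fold change was -0.011 for complex I, 0.049 for complex III, 0.050 for complex IV, -0.13 for complex V, -0.39 for the tissue-specific isoforms and 0.56 for the assembly factors. On log2(TPM + 1) it was -0.052, 0.012 and 0.013 for complexes I, III and IV, -0.37 for the isoforms and 0.45 for the assembly factors. These settings also move the median of all genes, from 0.06 to 0.40 and 0.22, and relative to it each complex kept its sign under every alternative run. The isoforms relative to all genes were at -0.59 on log2(TPM + 1) and from -0.74 to -0.59 with a knockdown library left out. Subunits above the control in all 3 knockdown libraries were 12 by library size alone and 13 on TPM, and 0 to 1 with a library left out. Those below were 30 and 37, and 62 to 73 with a library left out. Shares of all genes were worked out only for TMM-scaled CPM and TPM with all 3 libraries. The counts by library size alone or with a library left out therefore have no share to be read against. Summed on TMM-scaled CPM, the knockdown mean over the control was 0.778, 0.629, 0.734, 0.809 and 0.727 for complexes I to V.

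Relative to all genes the sign turned for Ndufv3 without knockdown replicate 1 (0.011, range -0.25 to 0.011 with a library left out), for Cox7a2l by library size alone (-0.0031), with no filter (-0.0031) and without replicate 3 (-0.11, range -0.11 to 0.18), for Atp5g1 on log2(TPM + 1) (0.049), for Suclg2 on log2(TPM + 1) (0.050) and without replicate 3 (0.058, range -0.14 to 0.058), and for Ucp1 without replicate 3 (-0.064, range -0.064 to 0.82). The cause was not tested. Without replicate 3 edgeR called Ppp2r1a (adjusted p of 0.0331), Sco2 (0.0316) and Mrps6 (0.0181), and DESeq2 called Ppp2r1a (0.0244). No paired analysis was possible because the control title carries no number (its description shares the number 3 with knockdown replicate 3) and the groups share fewer than 2 numbers. Depth was not the limit for the subunits, whose counts were 1163 or more. It limits Cox4i2, Cox6a2, Cox8b and Ndufa4l2, with at most 49 counts a library.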

Other observations

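For 63 of the 75 subunits the lowest knockdown library on TMM-scaled CPM was replicate 1 and the highest was replicate 3, with replicate 2 between them. The same held for 35.4% of all tested genes. Across the subunits in a library, the Spearman correlation of the gene length implied by counts and TPM with its log2 ratio stood at -0.29, -0.32 and -0.40 for replicates 1 to 3 (75 genes, which share a library and its depth), and 0.00, 0.02 and -0.01 across all genes. It is given as a description. Ndufa11 had 44.7 counts per TPM in the control where the complex I median was 10.1, a ratio of 4.42, so its low TPM goes with a long implied length.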
